A study of Mus musculus and Homo sapiens with 20 samples.

Results

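Promoters that carry H2AK119ub, H3K27me3, both marks or neither were compared in wild-type (WT) haematopoietic stem and progenitor cells (HSPCs). The comparison used 4 of the 20 CUT&Tag libraries of a mouse and human series, 2 for each mark. Every autosomal protein-coding gene of GENCODE release M21 on mm10 was classed by the 2 kb around its annotated start, 1 kb on each side of the transcription start site (TSS). A promoter counted as marked when it touched a peak in both replicates of that mark, and all 20807 promoters received 1 of 4 classes. The classes held 9964 promoters with both marks (47.9%), 3161 with H2AK119ub only (15.2%), 1686 with H3K27me3 only (8.1%) and 5996 with neither mark (28.8%).

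CUT&Tag directs a transposase to antibody-bound chromatin, so that the DNA around a chosen mark is cut and tagged. The study asked how TET2, an enzyme that oxidizes 5-methylcytosine, bears on chromatin through H2AK119ub, and it profiled both marks in Tet2 WT and Tet2 knockout (KO) HSPCs and mouse embryonic stem (mES) cells. The HSPCs used here were lineage-negative, c-Kit-positive (LK) bone marrow cells, enriched on magnetic beads from WT C57BL/6 mice aged 6 to 8 weeks, of both sexes in the study. All 4 libraries share that genotype and cell type and differ in the antibody, rabbit monoclonals from Cell Signaling Technology. Whether replicates came from separate mice, and whether the cells had been cultured, is not stated, so p-values measure only the spread between these libraries, which may be technical. LK cells are a mixture of stem cells and committed progenitors, so 2 marks on the same DNA and marks in different cells cannot be told apart.

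Polycomb repressive complex 1 (PRC1) places ubiquitin on histone H2A, and Polycomb repressive complex 2 (PRC2) trimethylates lysine 27 of histone H3. Variant PRC1 reaches CpG islands through the CxxC protein KDM2B, whereas canonical PRC1 binds H3K27me3 through CBX proteins, and PRC2 subunits such as JARID2 can in turn recognize H2AK119ub. The deubiquitinase complex built on BAP1 and ASXL proteins removes the mark. In blood stem cells Polycomb is known for holding genes of other lineages silent.

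CpG content differed among the classes, and upstream sequences are shown first for that reason. In the 200 bases before the TSS the median number of CpG dinucleotides was 13 for promoters with both marks, 8 for H2AK119ub only, 5 for H3K27me3 only and 1 for neither, against 7 over all promoters. Below is 1 gene from each class whose upstream sequence lies within 1 CpG of its class median, chosen after the values were seen. Sequences are from GRCm38 (mm10), read 5′ to 3′ toward the TSS, with CpG in capitals. Pax6 (both marks, plus strand, chr2:105668700-105668899) encodes an eye and brain regulator, and Asxl1 (H2AK119ub only, plus strand, chr2:153345629-153345828) a BAP1 cofactor mutated in myeloid disease. Cd79a (H3K27me3 only, plus strand, chr7:24897181-24897380) encodes a B-cell receptor chain. Both single-mark examples had the other mark in 1 replicate, H3K27me3 of minimum width in replicate 2 at Asxl1 and H2AK119ub of 1592 bp in replicate 1 at Cd79a. Mecom (neither mark at the outermost start, minus strand, chr3:30548009-30548208) encodes a stem-cell transcription factor.
Pax6: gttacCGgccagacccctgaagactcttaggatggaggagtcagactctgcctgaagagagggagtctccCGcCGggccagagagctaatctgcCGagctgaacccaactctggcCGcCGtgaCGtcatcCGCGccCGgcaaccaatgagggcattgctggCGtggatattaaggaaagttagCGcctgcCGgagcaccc
Asxl1: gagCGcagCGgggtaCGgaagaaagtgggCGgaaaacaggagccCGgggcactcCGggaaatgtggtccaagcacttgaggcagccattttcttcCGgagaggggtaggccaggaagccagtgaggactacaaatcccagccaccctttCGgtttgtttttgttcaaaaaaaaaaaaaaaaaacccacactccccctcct
Cd79a: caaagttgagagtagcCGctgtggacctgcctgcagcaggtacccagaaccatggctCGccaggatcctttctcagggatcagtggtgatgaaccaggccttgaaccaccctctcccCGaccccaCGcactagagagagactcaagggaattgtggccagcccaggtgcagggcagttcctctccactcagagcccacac
Mecom: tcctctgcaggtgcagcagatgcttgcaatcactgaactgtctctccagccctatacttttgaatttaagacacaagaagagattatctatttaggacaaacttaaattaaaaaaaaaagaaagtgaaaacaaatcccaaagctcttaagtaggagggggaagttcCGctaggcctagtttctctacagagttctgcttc
These hold 13, 8, 4 and 1 CpG respectively.

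A further set shows the range within classes. Dmpk and Pdxp lay under the widest peaks of their class, and Lmo2 was the first listed gene with no peak in any library. Dmpk (both marks, plus strand, chr7:19083649-19083848) had 1 CpG in the stretch, far below its class median, and Pdxp (H2AK119ub only, plus strand, chr15:78913719-78913918) had 19. Lmo2 (neither, plus strand, chr2:103957786-103957985) had 4.
Dmpk: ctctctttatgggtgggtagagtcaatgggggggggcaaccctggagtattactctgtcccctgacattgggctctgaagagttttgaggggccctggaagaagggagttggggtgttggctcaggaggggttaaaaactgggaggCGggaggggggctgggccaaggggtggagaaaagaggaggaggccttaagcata
Pdxp: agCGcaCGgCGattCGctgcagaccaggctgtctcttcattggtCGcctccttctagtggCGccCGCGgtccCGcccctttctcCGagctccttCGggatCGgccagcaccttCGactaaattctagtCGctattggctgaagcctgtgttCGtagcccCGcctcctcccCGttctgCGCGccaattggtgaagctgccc
Lmo2: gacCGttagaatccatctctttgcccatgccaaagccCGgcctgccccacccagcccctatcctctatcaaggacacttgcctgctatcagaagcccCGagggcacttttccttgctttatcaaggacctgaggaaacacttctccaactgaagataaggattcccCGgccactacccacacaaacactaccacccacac

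Both marks together were the most frequent class. H2AK119ub was called at 13125 promoters in both replicates (63.1% of 20807) and H3K27me3 at 11650 (56%). With peaks of at least 1 kb alone, 4441 promoters had both marks, 4235 H2AK119ub only and 2267 H3K27me3 only, so that promoters with a single mark then outnumbered those with both. The single-mark classes rest partly on calls that 1 replicate lacked. Of the 3161 promoters with H2AK119ub only, H3K27me3 was called in replicate 1 alone at 674 and in replicate 2 alone at 1064, which leaves 1423 with no H3K27me3 peak in either. Of the 1686 with H3K27me3 only, H2AK119ub was called in replicate 1 alone at 736 and in replicate 2 alone at 177, which leaves 773. The H2AK119ub list of replicate 2 was the shorter of its pair. Without that library H3K27me3 only came to 950 promoters, and without H3K27me3 replicate 1 H2AK119ub only came to 2097. Those partial peaks were small, with medians of the minimum width and 626 bp for H3K27me3 in replicates 1 and 2, and of 755.5 bp and the minimum width for H2AK119ub. The minimum width, 0.501 kb, was the most frequent width in every list, and at most 1 autosomal peak per list was narrower.

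CpG-rich promoters were mostly in the class with both marks. A promoter was called CpG-rich when a 500-bp window within it had an observed over expected CpG ratio above 0.75 and a GC content above 55%, and CpG-poor when no window exceeded a ratio of 0.48. CpG-rich promoters made up 75.3% of the class with both marks, 54.7% of H2AK119ub only, 32.6% of H3K27me3 only and 8.97% of neither, against 49.6% of all promoters. Read the other way, 72.7% of the 10313 CpG-rich promoters had both marks, whereas 65.6% of the 6644 CpG-poor promoters had neither. CpG-poor promoters were still not empty, since 815 had both marks, 866 H2AK119ub only and 607 H3K27me3 only. Genes of the class with H3K27me3 only were long, with a median span of 31.3 kb against 20.9 kb for both marks and 17.7 kb for H2AK119ub only. Another protein-coding start lay in the window of 19.1% of promoters with both marks and 15.5% of those with H2AK119ub only, but of 3.44% of those with H3K27me3 only.

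The marks differed in shape around the TSS. At promoters with both marks the H2AK119ub peak that covered most of the window had a median width of 2268 bp in replicate 1 and 1904 bp in replicate 2. The H3K27me3 peak there had medians of 1374 and 1478 bp. H3K27me3 was narrower in the middle of the distribution and wider at the top, with 75th percentiles of 5895 and 6019 bp against 4570 and 3962 bp for H2AK119ub. Promoters with H2AK119ub only had narrower H2AK119ub peaks, at 1388 and 1168 bp. Promoters with H3K27me3 only had wider H3K27me3 peaks, at 3026 and 3038 bp. Both replicates of each mark gave the same order.

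**Figure D1:**
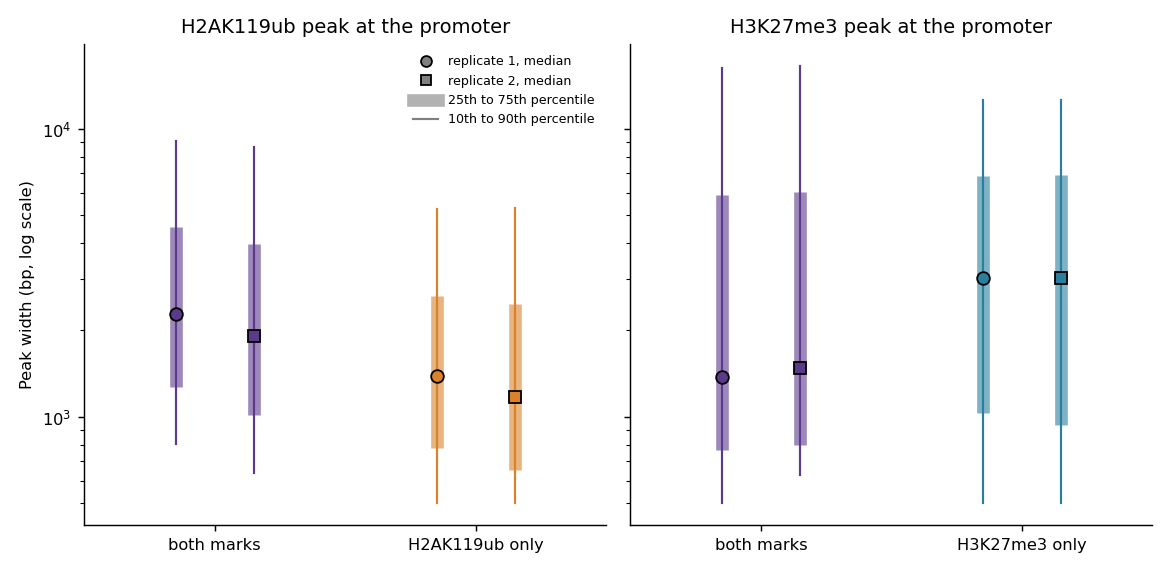
Width in bp (log scale) of the peak that covers most of each promoter window, for H2AK119ub (left) and H3K27me3 (right), by class and replicate. Points are medians, thick bars the 25th to 75th percentile and thin bars the 10th to 90th. H2AK119ub peaks were widest at promoters with both marks, whereas the median H3K27me3 peak was wider at promoters with H3K27me3 only.

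The class with both marks was divided by H3K27me3 width, a division chosen after the widths were seen. In 2553 promoters (25.6%) the H3K27me3 peak reached 5 kb in both replicates, in 5393 (54.1%) it stayed under 2 kb in both, and 2018 lay between. At the wide promoters the H3K27me3 medians were 12691 and 12973 bp and the H2AK119ub medians 3743 and 2540 bp. At the narrow promoters the H3K27me3 medians were 789 and 847 bp and the H2AK119ub medians 1649 and 1527 bp. The difference in H3K27me3 between these groups follows from the division, so it is given as a description. Per promoter, both H3K27me3 peaks exceeded both H2AK119ub peaks at 2941 of 9964 (29.5%), and the reverse held at 4564 (45.8%). Narrow promoters were the more often CpG-rich, 81.9% against 67.5%, and more often shared the window with another start, 26.2% against 6.42%.

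Coverage was also followed along the DNA on both sides of the TSS, where the contrast in H3K27me3 between wide and narrow promoters again follows from the division by its width. A position counted here when both replicates had a peak over it. H3K27me3 covered the TSS of 99.1% of wide promoters, and 60.6% were still covered 5 kb upstream and 70.2% 5 kb downstream. At narrow promoters it covered 76.1% at the TSS, 5.64% upstream and 2.52% downstream. H2AK119ub covered the TSS of 69.7% of wide and 88.2% of narrow promoters. Its rise near the TSS follows from the class rule, which requires an H2AK119ub peak in the window. At wide promoters the highest H2AK119ub coverage, 73.3%, lay 400 bp downstream. It was 46.5% at 1 kb upstream and 66.1% at 1 kb downstream. The nearest shared H3K27me3 region to a promoter with H2AK119ub only lay at a median distance of 18.4 kb, and the nearest shared H2AK119ub region to a promoter with H3K27me3 only at 28.7 kb.

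**Figure D2:**
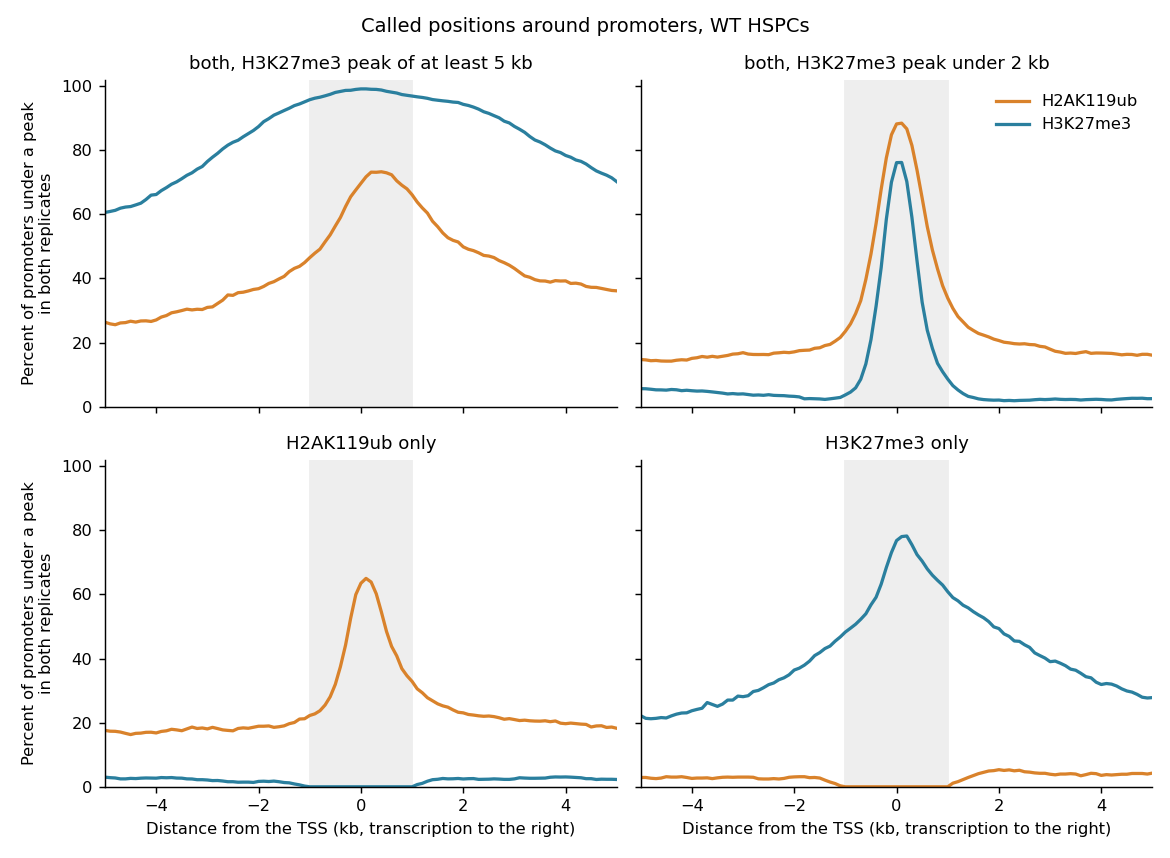
Percent of promoters under a peak in both replicates at each distance from the TSS (kb, 100-bp steps), for 4 groups of promoters. Grey bands mark the window that set the class, so the absence of the other mark inside it in the lower panels follows from the rule, as the reach of H3K27me3 in the wide and narrow groups follows from their division by its width. H3K27me3 lay between 60.6% and 99.1% across the wide promoters, and at the narrow ones it went from 76.1% at the TSS to 5.64% and 2.52% at the ends.

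Developmental regulators, transcription factors that specify tissues other than blood, carried both marks at 18 of 20 promoters, against 47.9% of all promoters. The list was 80% CpG-rich, and 72.7% of all CpG-rich promoters had both marks. All 18 had an H3K27me3 peak of at least 5 kb, and at all 18 both H3K27me3 peaks exceeded both H2AK119ub peaks. Over all promoters with both marks these shares were 25.6% and 29.5%. At Gata4, a regulator of heart and endoderm, the H2AK119ub peaks were 644 and 1127 bp and the H3K27me3 peaks 51711 and 57786 bp. Gata6, a close relative, had H2AK119ub peaks of 6209 and 5139 bp and H3K27me3 peaks of 19670 and 14375 bp. Pax7, a muscle stem-cell factor, showed the extreme, with H2AK119ub at the minimum width in both replicates and H3K27me3 peaks of 100705 and 84101 bp. Pax6 lay under both marks in broad form, with 11033 and 11937 bp of H2AK119ub and 48147 and 46334 bp of H3K27me3. The remaining genes, Pax3 and Tbx5, were classed as H3K27me3 only because H2AK119ub was called in replicate 1 (762 and 2925 bp) and not in replicate 2. With every start of a protein-coding transcript considered, Pax3 and Tbx5 had both marks.

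Hox genes, which pattern the body axis, showed the same arrangement. Of 39 autosomal Hox genes 36 had both marks, against 47.9% of all promoters and 72.7% of CpG-rich ones. Of the 36, 34 lay under H3K27me3 of at least 5 kb, against 25.6% of all promoters with both marks. The median H3K27me3 peak over a Hox promoter was 96483 bp in replicate 1 and 85240 bp in replicate 2, because neighbouring genes of a cluster shared 1 peak. The median H2AK119ub peaks were 4803 and 3738 bp. The exceptions were Hoxb6, with an H2AK119ub peak of 14424 bp in replicate 1 and none in replicate 2, and Hoxb3 and Hoxa5, which had H2AK119ub in replicate 2 at 1065 and 626 bp and no H3K27me3 in either. When every start of a protein-coding transcript was considered, Hoxb6 and Hoxb3 had both marks and Hoxa5 still had neither. Hoxa9, which HSPCs express, lay with its cluster under H3K27me3 peaks of 96483 and 95470 bp.

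Other developmental families were also mostly in the class with both marks, which held 47.9% of all promoters and 72.7% of CpG-rich ones. Over all promoters, 15.2% had H2AK119ub only and 8.1% H3K27me3 only. Among Pax, Lhx, Tbx, Nkx and Sox genes, 52 of 61 had both marks, 6 had H3K27me3 only, 2 had H2AK119ub only (Sox15 and Tbx6) and Tbx19 had neither at its outermost start. All 6 with H3K27me3 only had an H2AK119ub peak in 1 replicate. Among Wnt, Fgf and Bmp genes, which encode secreted signals, 37 of 49 had both marks, 8 had H3K27me3 only and none had H2AK119ub only. Wnt5a was 1 of these 8, with H3K27me3 peaks of 17916 and 15156 bp and H2AK119ub in replicate 1 alone. Without a peak of the other mark in either replicate, 2 of the 8 remained.

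Stem and progenitor regulators carried both marks at 15 of 20 promoters, against 47.9% of all. Of the 15, 4 lay under H3K27me3 of at least 5 kb and 4 under less than 2 kb, against 25.6% and 54.1% of all promoters with both marks. Kit, the receptor on which the cells were selected, had H2AK119ub peaks of 2374 and 1657 bp and H3K27me3 peaks of 767 and 1037 bp. Cd34, a surface marker of progenitors, had 751 and 1757 bp of H2AK119ub, and the minimum width and 1611 bp of H3K27me3. Peaks of both marks at Gata2, a transcription factor of stem cells, were broad and alike in width, at 20076 and 21724 bp for H2AK119ub and 19242 and 19786 bp for H3K27me3. At Tal1, a factor required to form blood, H3K27me3 was the more even, at 11750 and 10078 bp, against 2124 and 8255 bp of H2AK119ub. Myb, a progenitor proliferation factor, and Runx1, required to form stem cells, were classed as H2AK119ub only. At Myb the H2AK119ub peaks were 2092 bp and the minimum width with no H3K27me3, whereas Runx1 had an H3K27me3 peak of 660 bp in replicate 1.

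The start used to define a promoter decided the class of some of these genes. Lmo2 and Mecom had no peak of either mark at the outermost annotated start. When every start of a protein-coding transcript was considered, both became marked by H2AK119ub and H3K27me3, as 18 of the 20 stem and progenitor genes then were, while Myb stayed in H2AK119ub only. Runx1 was among the 18. Over all genes the same step placed 216 of the 5996 promoters with neither mark in the class with both, 246 in H2AK119ub only and 123 in H3K27me3 only.

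Of 20 erythroid and myeloid genes 12 had both marks, a share not far from the 47.9% of all promoters. At 9 of the 12 both H2AK119ub peaks were wider than both H3K27me3 peaks, against 45.8% of all promoters with both marks. The reverse held at 1 of the 12, against 29.5%. That gene was Epor, with H3K27me3 peaks of 45259 and 13526 bp and H2AK119ub peaks of 11059 and 6539 bp. Cebpa also had H3K27me3 of at least 5 kb, at 5914 and 5539 bp, under H2AK119ub of 9150 and 7879 bp. Klf1, the master activator of the red-cell programme, had H2AK119ub peaks of 6537 and 13969 bp and H3K27me3 peaks of 649 and 1165 bp. Zfpm1, a GATA1 cofactor, lay under 37402 and 49190 bp of H2AK119ub and 13911 and 3366 bp of H3K27me3. Gfi1b, a repressor in red cells and megakaryocytes, and Nfe2, a globin and platelet factor, had H3K27me3 peaks of 776 to 1778 bp. Spi1, which encodes the myeloid factor PU.1 and was picked after its values were seen, had 10824 and 6799 bp of H2AK119ub and 667 and 639 bp of H3K27me3.

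Elane and Mpo, which encode granule proteins of neutrophil precursors, and Pf4 and Vwf, expressed in megakaryocytes, had H2AK119ub only, with no H3K27me3 in either replicate. The H2AK119ub peaks at Elane were 12268 and 2519 bp, at Mpo 854 and 3493 bp, at Pf4 805 bp and the minimum width, and at Vwf the minimum width in both. Ly6g, Csf1r, Csf3r and Itgam, genes of maturing myeloid cells, had neither mark by the rule, and each had a peak in at least 1 library.

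Of 20 lymphoid genes 10 had both marks, close to the share of all promoters, and 9 of them lay under H3K27me3 of at least 5 kb, against 25.6% of all promoters with both marks. Both H3K27me3 peaks exceeded both H2AK119ub peaks at 8 of the 10 and the reverse held at none, against 29.5% and 45.8%. Pax5, the B-cell identity factor, had H3K27me3 peaks of 51072 and 64812 bp and H2AK119ub peaks of 4415 and 2327 bp. Ebf1, which acts with it, had 28772 and 22265 bp of H3K27me3 and 1210 and 2335 bp of H2AK119ub. The T-cell factors Tcf7 and Gata3 had 13342 and 11057 bp, and 35758 and 38344 bp, of H3K27me3. Bcl11b, required for commitment to the T lineage, carried H3K27me3 of 42612 and 18825 bp with no H2AK119ub in either replicate. Cd79a and Cd3e were also classed as H3K27me3 only, each with an H2AK119ub peak in replicate 1. Genes of the antigen-receptor machinery and of mature T cells were largely bare, as Il7r, Rag1, Rag2, Cd4 and Cd8a had neither mark by the rule. Rag1, Rag2 and Cd4 had an H2AK119ub peak in replicate 1, of 1449 bp, the minimum width and 634 bp. Peak lists of these marks do not measure expression, so they neither show nor deny that B or T cells were in the sort.

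**Figure D3:**
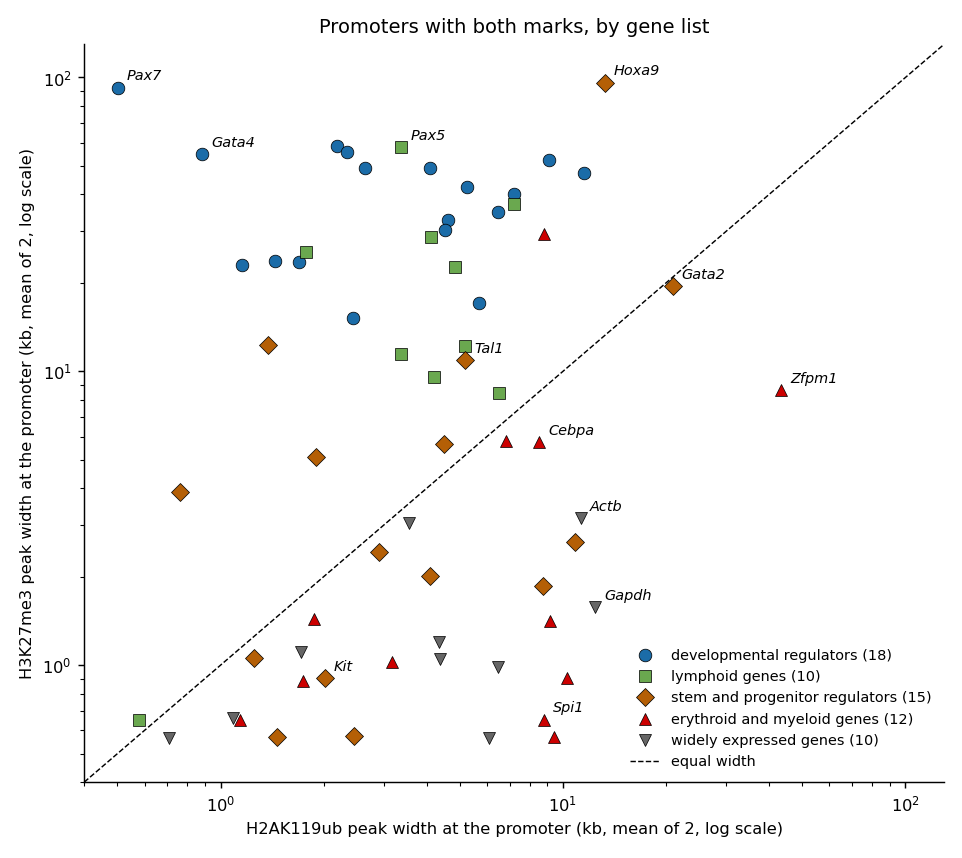
Width of the H2AK119ub peak (x, kb) against the H3K27me3 peak (y, kb) at promoters with both marks, each the mean of 2 replicates on log axes, for 5 gene lists with the number of genes in brackets. Developmental regulators lie above the line of equal width, widely expressed genes below it, and stem and progenitor regulators on both sides.

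Genes of the Polycomb machinery were mostly CpG-rich, at 95% of PRC1 and 90.9% of PRC2 genes, and 72.7% of all CpG-rich promoters had both marks and 16.8% H2AK119ub only. Of 20 PRC1 genes 13 had both marks and 6 H2AK119ub only, and of 11 PRC2 genes 8 had both marks and 3 H2AK119ub only. Without an H3K27me3 peak in either replicate, 4 of the 6 and 1 of the 3 remained. None of either list had H3K27me3 only. Bmi1, a PRC1 core gene of stem-cell renewal, had H3K27me3 peaks of 4447 and 4780 bp and H2AK119ub peaks of 2055 bp and the minimum width. Pcgf1, of variant PRC1, lay under broad peaks of both, at 23372 and 15389 bp of H2AK119ub and 22218 and 23027 bp of H3K27me3, and Pcgf2 had 6918 and 9217 bp and 7018 and 4405 bp. The chromodomain gene Cbx8 was among the promoters with the widest shared peaks of all, with 39933 and 29350 bp of H2AK119ub and 35176 and 34729 bp of H3K27me3. The catalytic genes Rnf2 and Ring1 had H2AK119ub only, at 858 and 1618 bp for Rnf2 and 22074 and 13998 bp for Ring1, where H3K27me3 was of minimum width in 1 replicate. Cbx6, Cbx7, Pcgf6 and Phc2 were in the same class. At the outermost start Kdm2b had neither mark and Cbx7 H2AK119ub only, and each had both marks when all starts were used.

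The PRC2 genes Ezh2, its catalytic subunit, and Eed and Suz12, its core partners, had both marks under short peaks. H3K27me3 was 632 and 628 bp at Ezh2, 746 and 1222 bp at Eed, the minimum width and 1054 bp at Suz12, and the minimum width in both replicates at Ezh1. Jarid2, Mtf2 and Aebp2, which encode accessory subunits, had H2AK119ub only, with 1646 and 1780 bp, 665 and 696 bp, and 4532 and 3863 bp. Jarid2 had both marks when all starts were used.

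Genes of the H2A deubiquitinases had H2AK119ub only at 6 of 12 promoters and both marks at 5, against 15.2% and 47.9% of all promoters. The list was 91.7% CpG-rich, and of all CpG-rich promoters 16.8% had H2AK119ub only and 72.7% both marks. Bap1, the catalytic subunit, had H2AK119ub peaks of 4001 and 1670 bp and an H3K27me3 peak of minimum width in replicate 2 alone. Asxl1, Foxk1, Foxk2, Usp16 and Mysm1 were in the same class, and only Foxk2, Usp16 and Mysm1 lacked H3K27me3 in both replicates. Mbd5 and Mbd6, the methyl-binding partners of BAP1, had both marks, with 1407 and 781 bp of H2AK119ub and 1084 and 1356 bp of H3K27me3 at Mbd5, and 9009 and 11856 bp and 2584 and 3845 bp at Mbd6. Asxl2, Kdm1b and Usp21 also had both. Asxl3, a neural family member, was the exception in the other direction, with H3K27me3 of 3455 and 4480 bp and no H2AK119ub.

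CDK inhibitors, which halt the cell cycle, carried both marks at 6 of 7 promoters, against 47.9% of all promoters. CpG-rich promoters made up 85.7% of this list, and 72.7% of all CpG-rich promoters had both marks. Cdkn2a and Cdkn2b, the classical Polycomb targets of ageing cells, shared an H3K27me3 peak of 31134 and 31280 bp, under H2AK119ub of 2934 and 2926 bp at Cdkn2a and 3184 and 1055 bp at Cdkn2b. The imprinted gene Cdkn1c had H3K27me3 of 18500 and 18435 bp and H2AK119ub of 9360 and 11351 bp. Cdkn1b had H3K27me3 at the minimum width in both replicates and H2AK119ub of 4199 and 4212 bp. Cdkn1a, the p53 target, had H2AK119ub only at its outermost start, at 2497 and 4942 bp, and both marks when all starts were used.

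Widely expressed genes were not free of either mark. Of 16 such genes 10 had both marks, 6 had H2AK119ub only and none had neither, and 75% of the list was CpG-rich. The share with both lay between the 47.9% of all promoters and the 72.7% of CpG-rich ones. Over all promoters, 15.2% had H2AK119ub only, 8.1% H3K27me3 only and 28.8% neither. Over CpG-rich promoters these shares were 16.8%, 5.32% and 5.22%. No H3K27me3 peak among the 10 reached 5 kb in both replicates, and 7 stayed under 2 kb, against 25.6% and 54.1% of all promoters with both marks. At 9 of the 10, both H2AK119ub peaks were wider than both H3K27me3 peaks, against 45.8% of all promoters with both marks. Actb, cytoskeletal actin, had H2AK119ub peaks of 9479 and 13102 bp and H3K27me3 peaks of 3285 and 3048 bp, and Gapdh, a glycolytic enzyme, 8412 and 16470 bp and 2516 and 641 bp. Ppia, a prolyl isomerase, had 3073 and 5591 bp and 791 and 1609 bp, and Hsp90ab1, a chaperone, 3604 and 3516 bp and 2703 and 3391 bp. Eef2, Ywhaz, Tbp, Tubb5, B2m and Eef1a1 had H2AK119ub only, and all but Ywhaz and Tbp had an H3K27me3 peak in 1 replicate. Ywhaz and Eef1a1 had both marks when all starts were used. Ribosomal protein genes, 90.7% of them CpG-rich, had both marks at 54 of 75, or 72%, near the 72.7% of all CpG-rich promoters. Another 18 had H2AK119ub only. Of the 54, 46 were narrow, against 54.1% of all promoters with both marks. The median H3K27me3 peaks of ribosomal protein genes were 791 and 916 bp. Proteasome genes were split into 19 of 38 with both marks, 12 with H2AK119ub only and 7 with neither, and mitochondrial ribosomal protein genes into 47, 19 and 5 of 78, with 7 under H3K27me3 only. No control-antibody library was analysed here, so the level of peaks in the absence of the marks is unknown.

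Several families of differentiated tissues and of the senses were also counted. Over all promoters, 47.9% had both marks, 15.2% H2AK119ub only, 8.1% H3K27me3 only and 28.8% neither. Keratin genes, which build epithelial filaments, had H3K27me3 only at 30 of 49 promoters, against 8.1% of all, and 20 of the 30 had no H2AK119ub in either replicate. Potassium channel genes had both marks at 52 of 91 and H3K27me3 only at 23. Collagen genes had both marks at 23 of 42 and H3K27me3 only at 12. Olfactory receptor genes had neither mark at 1006 of 1087 promoters and vomeronasal receptor genes at 325 of 326. Of the olfactory receptors 66 had H3K27me3 only, 28 of them on chromosome 11. Zinc finger genes named Zfp spread over all classes, with 148 of 358 under both marks, 72 under H2AK119ub only, 16 under H3K27me3 only and 122 under neither.

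**Figure D4:**
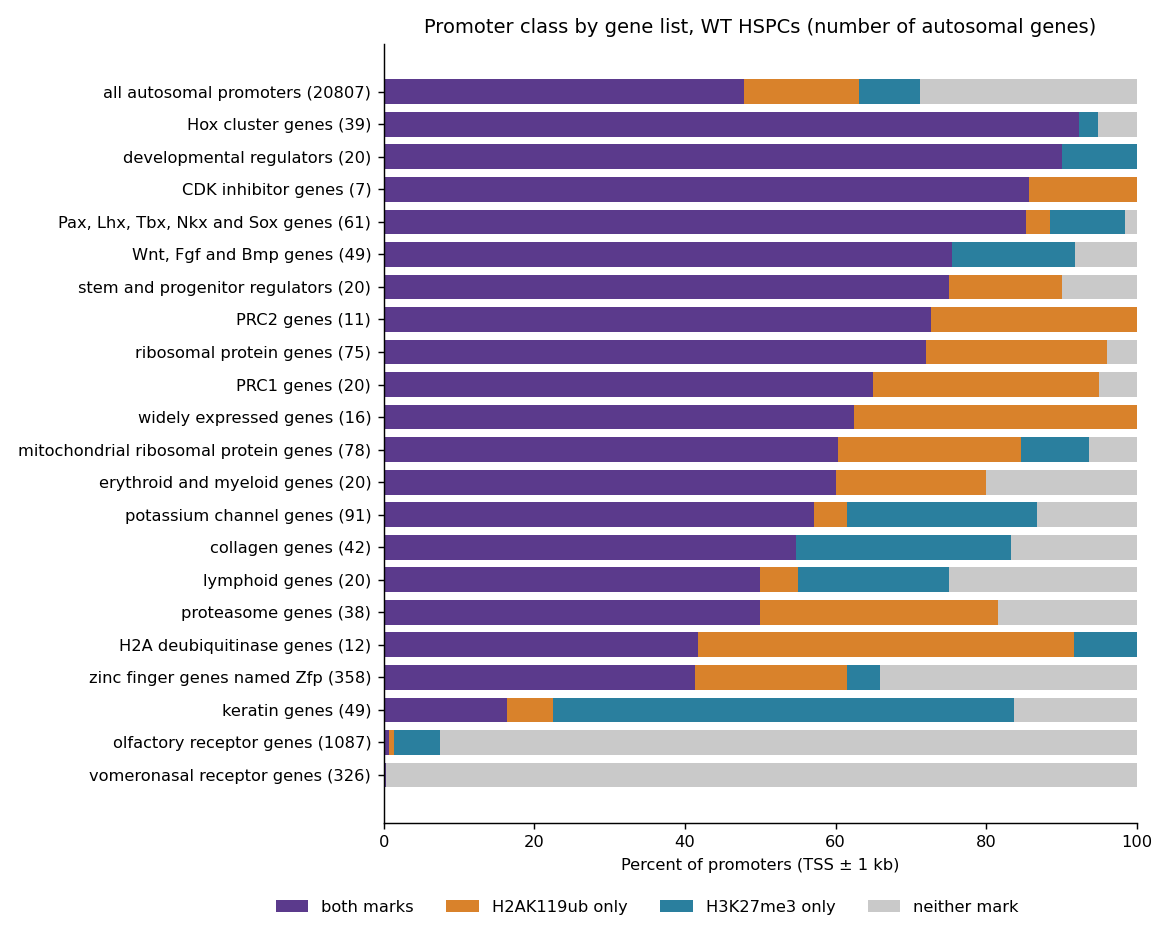
Percent of the promoters of each gene list in the 4 classes, with the number of autosomal genes in brackets and all autosomal promoters in the top row. Keratin genes have the largest share of H3K27me3 only among the lists shown, and H2A deubiquitinase genes the largest share of H2AK119ub only.

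Genes of the same class lay side by side. The longest run of H3K27me3 only held 18 neighbouring promoters on chromosome 15, from 101517261 to 101924735, nearly all keratin genes, and the second longest held 10 promoters on chromosome 11, the keratin genes from Krt222 to Krt23. The longest run of H2AK119ub only held 21 promoters on chromosome 13, from 23531050 to 23710854, 20 of them histone genes from Hist1h4h on and the last Hfe. Histone genes were therefore counted as a family, a choice made after the run was seen. Of 67 autosomal histone genes 41 had H2AK119ub only, 17 both marks, 9 neither and none H3K27me3 only, against 15.2% of all promoters with H2AK119ub only. No H3K27me3 peak was called in either replicate at 19 of the 41. Their median H2AK119ub peaks were 1710 and 2711 bp, and 21 and 35 of the 67 had an H3K27me3 peak in replicate 1 and replicate 2. The longest runs with both marks were 32 promoters on chromosome 17 from Gnptg to Gm20683 and 30 on chromosome 10 from Sbno2 to Adat3. The longest with neither mark held 234 promoters of chromosome 2, mostly olfactory receptors.

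Among promoters with the widest peaks, those with both marks included Dmpk, a muscle kinase, with 36318 and 30040 bp of H2AK119ub and 49114 and 32969 bp of H3K27me3. The others were Cbx8, Fbxl15, Gfy, Gpr153, Chpf, Smug1 and Gm4881, whose narrowest peak over the 4 libraries was 20355 bp at the last. Under H2AK119ub alone lay Pdxp, a phosphatase, with 33611 and 29633 bp, and Cbfa2t3, a corepressor of blood cells, with 33971 and 18415 bp. Cend1, Egfl7, E130218I03Rik, Abca7, Atg9b and Uba7 completed that group, of which Egfl7 had both marks when all starts were used. Under H3K27me3 alone lay Cfap65, a gene of the sperm tail, with 127727 and 98962 bp, and then Krt77, Aym1, Gpr17, 1110017D15Rik, Krt90, Papolb and Nr5a2. Of these, 1110017D15Rik and Nr5a2 had both marks when all starts were used.

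H3K27me3 reached much greater widths than H2AK119ub over the whole list, while covering a like length. H2AK119ub covered 170.7 and 138.4 Mb of the autosomes and H3K27me3 163.5 and 166.3 Mb, values that overlapped (two-sided exact permutation test over 6 assignments, p = 1). Peaks of at least 5 kb made up 3.31% and 2.92% of H2AK119ub peaks and 7.57% and 7.67% of H3K27me3 peaks. The means were 3.11% ± 0.277 and 7.62% ± 0.0703 (SD, n = 2), and the replicates of a mark lay far closer to each other than to the other mark (exact permutation p = 0.333). With 2 libraries against 2 this test cannot go below 0.333, so no measure could pass 0.05. Peaks of at least 5 kb held 21.9% and 20.7% of the summed length for H2AK119ub and 49.5% and 49.6% for H3K27me3.

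H2AK119ub lists were longer in number and richer in CpG. They held 132513 and 112281 peaks against 84467 and 85015 for H3K27me3, and touched 14680 and 13655 promoters against 12597 and 13047. Bases within 1 kb of a start made up 10.5% and 11.4% of covered bases against 8.96% and 9.16%. CpG density was 19.0 and 19.9 per kb against 17.2 and 17.3 per kb, and 8.51 per kb over the autosomes. Soft-masked repeats took 15.2% and 17.2% of H2AK119ub bases against 18.8% and 18.6% of H3K27me3 bases, and 33.5% of the autosomes. Median peak widths were 672 and 651 bp against 693 and 710 bp, and peaks of minimum width made up 38.7% and 41.4% against 38.0% and 37.0%. Of the 9 measures 8 did not overlap between marks (each exact permutation p = 0.333, 0.375 after Benjamini-Hochberg adjustment over the 9), and covered length did. Median width and the share of minimum-width peaks turned around when each list was cut to its first 84467 peaks, with a median width ratio of H2AK119ub over H3K27me3 of 1.34 in place of 0.943.

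**Figure D5:**
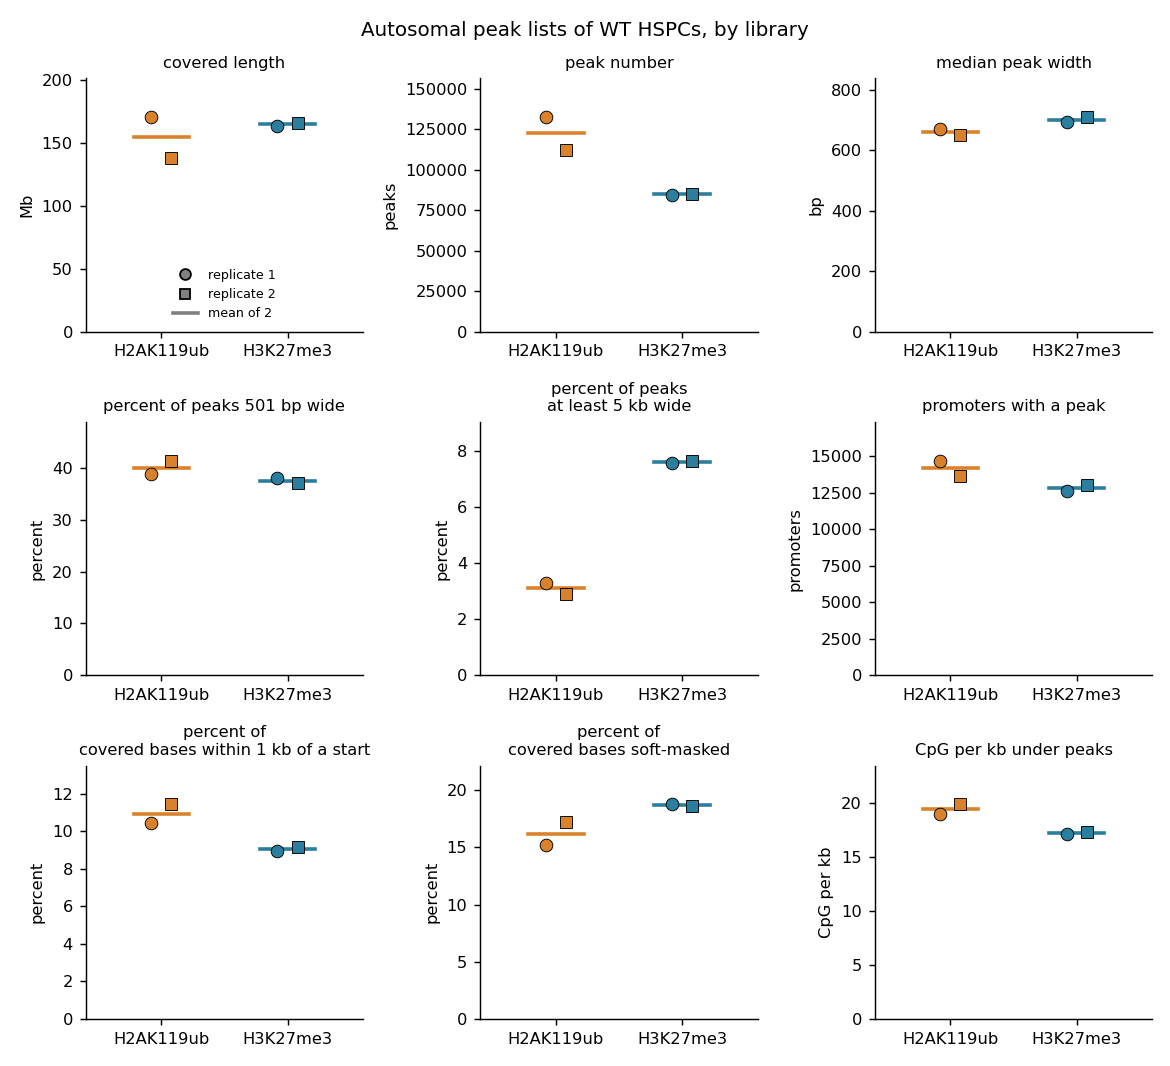
The 9 measures of the autosomal peak lists for each library, with circles for replicate 1, squares for replicate 2 and lines for the mean of 2, in the unit on each y axis, which starts at 0. The share of peaks of at least 5 kb separates the marks most in proportion, and covered length overlaps.

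Overlap of the marks was also measured base by base. This is a stricter measure than the promoter classes, where peaks of both marks need only touch the same 2 kb window. Bases called in both replicates came to 91.2 Mb for H2AK119ub and 126 Mb for H3K27me3, with 34.6 Mb in common, which is 37.9% of the H2AK119ub bases and 27.4% of the H3K27me3 bases. The latter share was 42.1% without H2AK119ub replicate 2. H3K27me3 took up 5.26% of known autosomal bases and H2AK119ub 3.81%. Replicate lists of a mark were more alike than lists of different marks, with a base-pair Jaccard index of 0.418 within H2AK119ub, 0.618 within H3K27me3 and 0.200 to 0.243 between the marks. Wider H2AK119ub regions overlapped more, with 29.5% of bases under H3K27me3 in regions under 1 kb and 49.9% in those of 10 kb or more. H3K27me3 regions showed no such order, as they had 30.6% of bases under H2AK119ub when under 1 kb, 21.7% between 2 and 5 kb and 30.8% at 10 kb or more.

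The 3 widest regions of each mark called in both replicates were then listed. For H3K27me3 they were 281.7 kb over the Hoxc cluster on chromosome 15 (38.0% of its bases under H2AK119ub), 146.6 kb over Pax2 on chromosome 19 (19%) and 136.6 kb over Rhcg on chromosome 7 (47.5%). For H2AK119ub the widest was 43.8 kb on chromosome 10 over Tjp3, Pip5k1c, Cactin and Tbxa2r, of which 18.7% lay under H3K27me3. The next were 34.4 kb over Apc2 to Reep6 on the same chromosome (80%) and 32.9 kb over Acot7, Gpr153, Hes3 and Icmt on chromosome 4 (87.5%).

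Classes were then read in libraries that had not set them. In Tet2 KO HSPCs of mice of the same age, 91.7% of promoters with both marks had both again, against 51.8% of all promoters there. H2AK119ub only recurred at 68.1% (17.6% of all), H3K27me3 only at 42.2% (4.72% of all) and neither at 83.8% (25.9% of all). Promoters with H3K27me3 only in WT cells more often had both marks in KO cells, at 46.7%. Genotype and list length cannot be told apart there, and no test of genotype was made.

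In WT mES cells, 63.1% of promoters with both marks had both and 28.1% had H2AK119ub only, against 42.7% and 22.9% of all promoters there. H2AK119ub only recurred at 42.4%. H3K27me3 only recurred at 8.54% (2.94% of all), while 66.0% of that class had both marks in mES cells. The H3K27me3 width split the class with both marks in HSPCs further, since 91.6% of wide promoters had both marks in mES cells, as opposed to 45.2% of narrow ones, of which 40.6% had H2AK119ub only. Keratin genes followed the class, with 37 of 49 under both marks in mES cells against 8 in HSPCs. Ribosomal protein genes had both marks at 9 of 75 in mES cells against 54 in HSPCs. Cell type, culture and sequencing depth cannot be told apart in that comparison.

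The share of promoters with both marks ran from 35.4% on chromosome 14 to 56.8% on chromosome 11, and neither ran from 15.5% on chromosome 11 to 43.2% on chromosome 14. Among genes the study followed, Nsun2, Pspc1, Socs3 and Nfkbia had both marks, and Tet2 itself had an H2AK119ub peak of 653 bp in replicate 2 as the only peak of 4 libraries. Socs3, a feedback inhibitor of cytokine signalling, had broad peaks of both, at 11790 and 19621 bp of H2AK119ub and 9658 and 9125 bp of H3K27me3. Nfkbia, the inhibitor of NF-κB, had 990 and 7193 bp of H2AK119ub, and the minimum width and 915 bp of H3K27me3.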

How the data were processed

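CUT&Tag peak lists of H2AK119ub and H3K27me3 in WT HSPCs were used as the authors deposited them, with chromosome, start and end per peak on mm10 and no score, signal or read count. Depth per library is therefore unknown, and no counting interval is given. Per the labels, the authors used Trimmomatic 0.39, Bowtie2 2.4.1 and HOMER 4.9, and the methods describe MACS2 broad peaks and a Drosophila spike-in. Each list belongs to 1 library, before any filter on agreement between replicates, and a spike-in does not scale called positions.

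Groups and replicate numbers came from the labels. Peaks on the 19 autosomes, protein-coding genes of GENCODE release M21 and the GRCm38 sequence were used. A promoter was marked when at least 1 bp of TSS ± 1 kb touched a peak in both replicates, and its width was that of the peak covering most of the window. Coordinates are 1-based. Analyses used Python 3.11.15, numpy 2.4.6 and pandas 2.3.3, Jaccard and coverage were checked against bedtools 2.31.1, and the class calls were tested on simulated data (100% of 1927 promoters recovered). Library measures were compared by two-sided exact permutation over 6 assignments with Benjamini-Hochberg adjustment over 9 tests; classes and lists carry no test.

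Named genes were those outside their list's majority class in the short lists, up to 4 of the majority in list order, the 8 under the widest peaks per class, the 3 widest regions per mark, the 2 longest runs per class and the study's genes. Genes outside this rule are examples chosen after their values were seen. Classes and gene lists were chosen with earlier results of these data known. Alternatives were peaks of at least 1 kb, equal peak numbers in list order, joined peaks, other promoter, start and replicate rules, all assembled chromosomes, leaving out each library and a replicate block. K562 and Tet2 KO mES lists were not used here. A few listed genes and 1 upstream sequence are not reported here.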

Additional observations from a re-analysis of the deposited data

How the results depend on the processing

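Of 149 values recomputed under the alternatives, 125 counted as unchanged, by unlike criteria. Library measures had only to keep their direction, with no limit on size, as 78 of 81 did. Class counts had to stay within a set fold of the main count, as 45 of 52 did. Base overlaps had to stay within the SD between replicates, as 2 of 16 did. The ratio of covered length (H2AK119ub over H3K27me3, 0.937) ran from 0.840 to 1.03 when 1 library was left out and turned without H2AK119ub replicate 2 (1.035). With each list cut to its first 84467 peaks, median width turned (ratio 1.34) and so did the share of minimum-width peaks (-22.1 points). With peaks of at least 1 kb alone, 4441 promoters had both marks and 9864 neither, and the base overlaps were 35.9% of H2AK119ub and 21.8% of H3K27me3. Counting a mark present in either replicate gave 1092 promoters with H3K27me3 only, and demanding absence in both gave 773, against 1423 for H2AK119ub only. Leaving out a library gave 2097 to 3980 promoters with H2AK119ub only and 950 to 2019 with H3K27me3 only, and overlaps of 30.3% to 47.0% for H2AK119ub bases and 25.01% to 42.1% for H3K27me3 bases. Overlaps over bases of either replicate were 40.2% and 43.0%, and with equal peak numbers 39.3% and 26.0%. The cause of these changes was not tested. Deviations of the same-numbered replicates were not correlated (r = -0.00257 across 20807 promoters). Whether these libraries share mice, a cell preparation or a batch is not stated and was not tested. A replicate block gave an exact permutation p of 0.5 for the 8 separated measures, the smallest its 4 sign assignments allow, and 1 for covered length. Peak number has no value with equal lists, nor has the minimum-width share with peaks of at least 1 kb or joined peaks.

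Depth is unknown, 2 libraries per mark cannot pass 0.05, and list positions carry no strength. Single-mark classes rest most on calls present in 1 replicate. A narrow peak of minimum width and a wide one count alike in the classes.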
